A study of Homo sapiens with 20 samples.

Results

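RUNX1 binding was examined along the CD300 receptor cluster and RAB37 on human chromosome 17. The peaks were taken by position, as every RUNX1 peak within 50 kb of the RefSeq span of CD300A, CD300C, CD300E, CD300LB, CD300LF, CD300LG or RAB37 (GRCh38). This gave 25 of 26642 peaks. The locus itself had been chosen by the fold changes and calls of knockdown against control, because gained and lost peaks lay close together there, so all values of that comparison below are a description and carry no test. ChIP-seq against the transcription factor RUNX1 had been performed in THP-1, an established cell line from a human acute monocytic leukemia, to ask how RUNX1 binding changes when the myeloid factor PU.1 is lowered. The 6 control libraries came from THP-1 cells with an inducible scramble shRNA and the 6 knockdown libraries from THP-1 cells with an inducible shRNA against PU.1. Both were treated with doxycycline (spelled doxocycline in the labels), which turns on the shRNA cassette. The labels place 3 control libraries in each of 2 batches, with 2 knockdown libraries in batch 1 and 4 in batch 2. The study describes the replicates as cell line replicates with their own immunoprecipitations and libraries. The labels name no separate cultures, so the spread between libraries may be partly technical. All libraries come from a single cell line, THP-1. The control and knockdown shRNAs were carried by different derivatives of it, so that shRNA and derivative cannot be told apart. PU.1 levels were not part of the counts, so that the knockdown was not checked here. The study gives a Western blot of PU.1 in THP-1 cells with the knockdown or control shRNA.

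CD300 receptors are membrane proteins of myeloid and other leukocytes with a single V-type immunoglobulin domain, and several of them bind lipids exposed on dying or activated cells. CD300A and CD300LF carry inhibitory motifs in their tails that recruit phosphatases. CD300LB, CD300C and CD300E signal as activating receptors through adaptors such as DAP12 (the product of TYROBP) or the Fc receptor gamma chain (FCER1G). CD300LG is known as a receptor of endothelial cells. RAB37, which shares the locus, encodes a small GTPase of secretory vesicles.

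The 23 peaks outside the CD300LG region lay in a stretch of 348.26 kb (chr17:74430387-74778646) and are numbered 1 to 23 from left to right. The other 2, LG1 and LG2, lay near CD300LG, which sits apart from the cluster on the same chromosome. The gap between LG1 and peak 2 was 30563050 bp. The median gap between successive peaks of the cluster was 11.1 kb. The smallest gap, 227 bp, separated peaks 1 and 2, and the largest, 61.5 kb, separated peaks 13 and 14. Member peaks were 460 to 2575 bp wide with a median of 1142 bp, against 889 bp over all peaks. Their median mean normalised count (reads per peak divided by the size factor of the library, averaged over the 12 libraries) was 35.5, against 31.2 over all peaks.

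The promoter sequences show which letters lie at gene starts that RUNX1 peaks covered or missed. RefSeq promoter windows (GRCh38.p14) were at hand for 2 of the 7 genes, CD300A and CD300LB, and the 250 bases upstream of the first CD300A start and of the CD300LB start are given 5′ to 3′ on the strand of the gene. The CD300A window (chr17:74466123-74466372, plus strand) lay inside peak 5. The CD300LB window (chr17:74531476-74531725, minus strand) was not covered by a peak and lay 201 bp from the nearest, peak 11. Capitals mark the match to a RUNX motif.
CD300A: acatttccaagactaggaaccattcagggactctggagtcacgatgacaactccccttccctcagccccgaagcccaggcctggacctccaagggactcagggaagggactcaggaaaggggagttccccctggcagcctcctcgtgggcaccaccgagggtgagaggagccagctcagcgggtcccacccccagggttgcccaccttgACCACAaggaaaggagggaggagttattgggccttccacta
CD300LB: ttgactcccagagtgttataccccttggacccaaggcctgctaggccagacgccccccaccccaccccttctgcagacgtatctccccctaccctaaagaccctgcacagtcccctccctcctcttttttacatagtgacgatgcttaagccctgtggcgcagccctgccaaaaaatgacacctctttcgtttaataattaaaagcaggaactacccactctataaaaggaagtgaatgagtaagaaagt

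Both strands of each window were searched for the RUNX motifs TGTGGT and TGCGGT, the PU.1 type motif GAGGAA and the CEBP type motif TTNNGNAA. The printed CD300A window held 1 match, TGTGGT read on the opposite strand as ACCACA, at bases 41 to 36 upstream of the start. A second CD300A window (chr17:74466384-74466633, plus strand, not printed) also lay inside peak 5 and held none of the 4 motifs. TGTGGT occurred in 11.0% of the 35116 promoter windows of all genes, TGCGGT in 5.84%, GAGGAA in 23.6% and TTNNGNAA in 33.2%. The CD300LB window held none of the 4 motifs. Only these 4 patterns were searched, so that other forms of RUNX, PU.1 or CEBP type sites in the windows would be missed. The printed windows were 61.2% (CD300A) and 50.4% (CD300LB) G or C, and the second CD300A window 55.2%. A match is only a run of letters and was not tested as a binding site.

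The libraries held 630247 to 1199004 reads in peaks (control) and 938745 to 1719840 (knockdown), of which 561 to 1192 and 915 to 1643 fell into the 25 member peaks. Knockdown libraries therefore held more reads in peaks on the whole, while the counts do not give the total of reads sequenced. Size factors were estimated from these same counts, so normalised counts would not show a change of RUNX1 signal shared by all peaks. A bulk ChIP signal cannot tell a smaller share of bound cells from less binding in each cell.

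Of the 25 member peaks, 7 were called gained (2, 4, 7, 8, 13, 17 and 21) and 5 lost (LG1, 3, 6, 14 and 15), and 13 were not called. A call was an adjusted p under 0.05 in DESeq2 over all peaks with a fold change over 1.1. The members called made up 48% of the 25, while 42.0% of all peaks were called, 21.3% gained and 20.7% lost. Over 2-fold changes were fewer, with 2 members (LG1 and 14), both lost, against 17.1% of all peaks. The median log2 fold change (knockdown against control) was 0.08 over the members and -0.02 over all peaks. It was 0.71 over the gained members and 0.91 over all gained peaks. Over the lost members it was -0.58, and over all lost peaks -0.85. The standard errors of single members ran from 0.11 to 0.39.

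**Figure D1:**
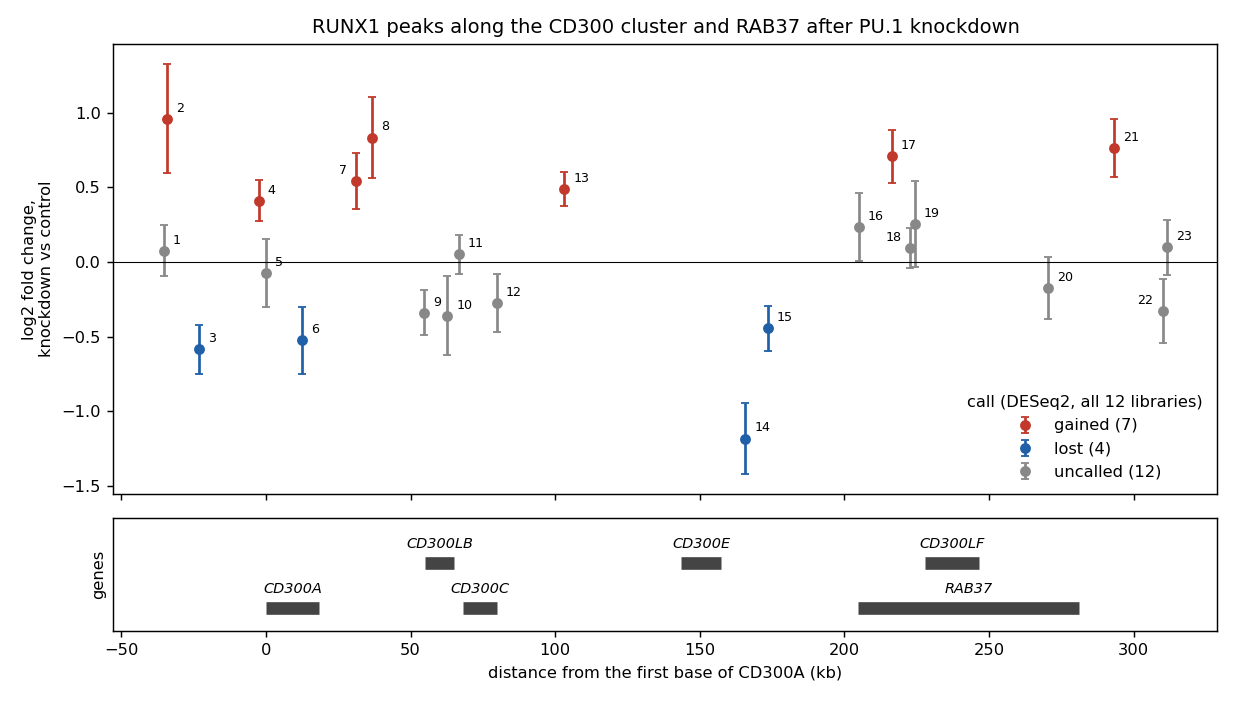
The upper panel plots the log2 fold change (knockdown against control) of the 23 peaks of the cluster with standard errors against the distance from the first base of CD300A in kb, and the lower panel the spans of 6 member genes. The 7 gained peaks (red) and 4 lost peaks (blue) interleave between GPRC5C and NHERF1, and peak 14 near CD300E has the lowest value, -1.18.

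A peak within 50 kb of several member genes was counted for each of them, so the counts per gene below share peaks. CD300A, an inhibitory receptor, had 11 peaks within 50 kb, 4 of them gained and 2 lost. The strongest of its immediate surroundings was peak 4 (chr17:74463185-74464467), 1906 bp from the gene. There the control libraries ran from 51.6 over a median of 78.4 to 102.3 normalised counts, and the knockdown libraries from 79.2 over 87.3 to 128.8. The means were 77.4 ± 17.1 and 97.5 ± 22.3 (SD, n = 6 each), a log2 fold change of 0.41 ± 0.14 (SE), and the groups overlapped. The rise was 0.65 in batch 1 and 0.21 in batch 2, and the 2 knockdown libraries of batch 1 stood above every other library. Each named peak was also read in 18 other settings of the fit (edgeR, other size factors, no batch term, a replicate block, centring on 10 Mb, and each of the 12 libraries left out), with the same threshold and window. The call at peak 4 was lost in 5 of them, including those without control replicate 6 (0.33) or knockdown replicate 1 (0.36).

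Peak 5 (chr17:74466060-74466864), which covers the first CD300A start and the window printed above, was not called. Its control libraries ran from 19.5 over 27.1 to 50.3 and its knockdown libraries from 20.4 over 28.1 to 38.3, with a log2 fold change of -0.07 ± 0.23. The groups overlapped widely, and the sign turned when control replicate 4 (0.13) or knockdown replicate 5 (0.015) was left out. Inside the gene, peak 6 (chr17:74478589-74479216) fell from 34.0 ± 9.29 to 22.6 ± 5.86 normalised counts, a log2 fold change of -0.53 ± 0.23. Its control libraries ran from 24.6 over 31.9 to 45.6 and its knockdown libraries from 14.6 over 24.1 to 28.7. The 3 control libraries of batch 1 were higher than all others, so that the fall was -0.998 in batch 1 and -0.14 in batch 2. This call was lost in 11 of 18 other settings, among them those without control replicate 1, 2, 3 or 6 and those without knockdown replicate 1, 2, 4 or 6.

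Farther left, 3 peaks within 50 kb of CD300A lay at GPRC5C, an orphan G protein-coupled receptor. Peak 2 (chr17:74431772-74432285), at the left end of GPRC5C, was thinly covered. Its lowest, median and highest control values were 3.72, 7.08 and 19.1 normalised counts, and those of the knockdown 10.3, 16.2 and 22.4. The groups overlapped, and the log2 fold change was 0.96 ± 0.37 (1.61 in batch 1 and 0.46 in batch 2). This call was lost in 8 of 18 other settings, among them those without control replicate 2, 3 or 5 and those without knockdown replicate 1, 2 or 3.
Peak 3 (chr17:74442452-74443888), within GPRC5C, was lost with no overlap between the groups. Its control libraries held 53.3 to 69.8 normalised counts (median 61.0) and its knockdown libraries 24.9 to 49.3 (median 42.3). The log2 fold change was -0.58 ± 0.17 and had the same sign in both batches (-0.48 and -0.65). Peak 1, 544 bp from GPRC5C, was not called (44.6 ± 6.56 in control and 45.5 ± 8.43 in knockdown).

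Between CD300A and CD300LB lay a pair of gained peaks separated by 4759 bp. Peak 7 (chr17:74496613-74498099) lay 11815 bp from CD300A. Its control libraries ran from 25.3 over 29.0 to 35.8 normalised counts and its knockdown libraries from 35.6 over 44.8 to 60.6. The knockdown libraries were above every control library of their own batch, and the log2 fold change was 0.54 ± 0.19. After centring on the surrounding 10 Mb it was 0.41 and the call was lost. Peak 8 (chr17:74502859-74503480), 17694 bp from CD300LB, rose from 13.2 ± 4.46 to 23.6 ± 2.84 normalised counts. The highest control value of 19.08 was below the lowest knockdown value of 19.12, so that the groups did not overlap but touched. The log2 fold change was 0.83 ± 0.27 (1.20 in batch 1 and 0.58 in batch 2), and the call was kept in these 18 settings. This peak was thin, with 6 to 15 raw reads per control library and 22 to 41 per knockdown library.

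CD300LB, an activating receptor, had 8 peaks within 50 kb, 3 gained and 1 lost, and none of the 2 peaks overlapping the gene was called. Peak 9 (chr17:74519699-74522273), at one end of CD300LB and the widest of the members, had control libraries from 48.1 over 76.2 to 80.7 and knockdown libraries from 45.9 over 56.8 to 64.8. The groups overlapped through control replicate 1, the lowest control library, and the log2 fold change was -0.34 ± 0.15. Without that library it was -0.42 and the peak was called lost. It was also called lost by edgeR, in a model without batch and after centring on the surrounding 10 Mb. Peak 10, within CD300LB, held 26.3 ± 6.30 normalised counts in control and 19.5 ± 8.43 in knockdown. Peak 11, 451 bp from the gene, held 82.0 ± 11.6 and 85.4 ± 8.44.

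CD300C, an activating receptor next to CD300LB, had 7 peaks within 50 kb, 3 of them gained and none lost. All 3 gained peaks (7, 8 and 13) lay outside the gene and are the same that were counted for CD300LB. The peak at the gene, 12 (chr17:74545490-74546680), was not called. Its control libraries ran from 29.9 over 37.3 to 44.6 normalised counts and its knockdown libraries from 24.9 over 30.4 to 36.2, with overlapping groups and a log2 fold change of -0.28 ± 0.19.

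The strongest member, peak 13 (chr17:74568927-74570169), lay 22812 bp from CD300C and 1418 bp from CD300H, another gene of the family. Its mean normalised count of 111.2 stood at percentile 95.9 of all peaks. Control libraries ran from 71.5 over 92.1 to 103.2 and knockdown libraries from 114.6 over 132.9 to 143.5, so that every knockdown library was above every control library. The log2 fold change was 0.49 ± 0.11, the smallest standard error of the members, and it was 0.46 in batch 1 and 0.52 in batch 2. The call was kept in the 18 other settings.

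CD300E, an activating receptor of monocytes, had no peak overlapping the gene and 4 within 50 kb, 2 of them lost and 1 gained (peak 13). Peak 14 (chr17:74631689-74632421), 7951 bp from CD300E, had the largest loss of the cluster. Control libraries held 24.3, 34.0 and 40.9 normalised counts (lowest, median, highest) and knockdown libraries 11.9, 12.96 and 20.1. The groups did not overlap, and the mean fell from 33.1 ± 6.79 to 14.6 ± 3.45, a log2 fold change of -1.18 ± 0.24 that was similar in batch 1 (-1.10) and batch 2 (-1.22).
Peak 15 (chr17:74639376-74640407) followed after 6954 bp, on the side of RAB37. Its control libraries held 60.7 to 77.4 normalised counts (median 63.7) and its knockdown libraries 41.4 to 61.2 (median 47.7). Within each batch the knockdown libraries were below the control libraries, and the log2 fold change was -0.45 ± 0.15. The call was lost without knockdown replicate 2 (-0.39) and without control replicate 5 (-0.38).

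CD300LF, an inhibitory receptor whose span lies inside that of RAB37, was overlapped by no peak. It had 6 peaks within 50 kb, 2 gained and none lost, and the nearest was peak 19 (chr17:74690465-74691001). This peak was thin, with 14.0 ± 4.54 normalised counts in control and 16.9 ± 3.31 in knockdown (log2 fold change 0.26 ± 0.29), and it was not called.

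RAB37 had 10 peaks within 50 kb, 2 gained and 2 lost, and 5 of them overlapped the gene. Of these 5, only peak 17 (chr17:74682478-74683203) was called. It was gained, with control libraries from 24.2 over 31.1 to 50.6 normalised counts and knockdown libraries from 44.8 over 59.3 to 67.7. The groups overlapped across batches but not within either batch, and the log2 fold change was 0.71 ± 0.18 (0.78 and 0.68 in batches 1 and 2).
Peak 18 (chr17:74688521-74689780), the strongest within RAB37, ran from 60.7 over 95.9 to 106.7 in control and from 79.7 over 100.8 to 111.6 in knockdown. Its groups overlapped, with a log2 fold change of 0.09 ± 0.13 that turned to -0.011 without control replicate 4 and to -0.037 after centring on the surrounding 10 Mb. Peak 16, at an end of RAB37, held 24.99 ± 9.12 and 27.6 ± 4.98 normalised counts, and peak 20 held 37.8 ± 9.22 and 33.2 ± 7.63. Neither was called.

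Beyond RAB37, peak 21 (chr17:74759279-74759960) lay within NHERF1, a scaffold protein of the membrane cortex. Its control libraries ran from 14.98 over 29.3 to 36.4 normalised counts and its knockdown libraries from 41.1 over 47.5 to 58.6. The groups did not overlap, and the log2 fold change was 0.76 ± 0.20 (0.67 in batch 1 and 0.85 in batch 2). Peaks 22 and 23, the last of the stretch, were not called (log2 fold changes -0.33 ± 0.21 and 0.10 ± 0.18).

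Near CD300LG, peak LG1 (chr17:43868173-43868721), 4534 bp from the gene, had the largest change of all members. Its control libraries held 10.5, 19.9 and 23.0 normalised counts (lowest, median, highest) and its knockdown libraries 1.19, 3.22 and 5.93. The groups did not overlap, and the mean fell from 18.5 ± 4.91 to 3.33 ± 1.72, a log2 fold change of -2.32 ± 0.39 (-2.07 in batch 1 and -2.55 in batch 2). The peak was thin, at percentile 2.30 of all peaks by mean normalised count, and rested on 9 to 20 raw reads per control library and 1 to 9 per knockdown library. Peak LG2, within MPP2, held 8.79 ± 2.21 and 11.4 ± 3.43 normalised counts and was not called.

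**Figure D2:**
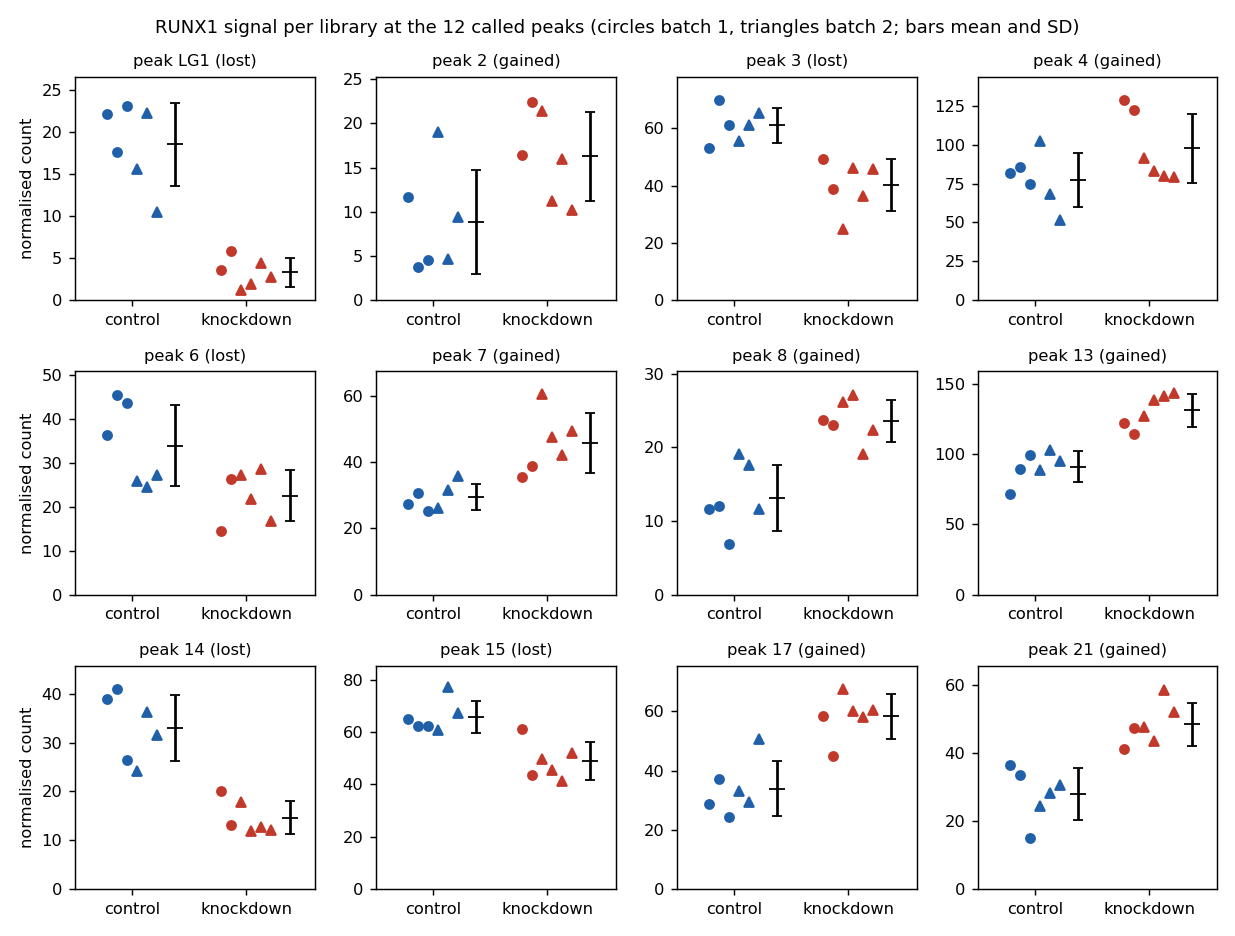
Each panel plots the normalised count of a called member peak in the 12 libraries (circles batch 1, triangles batch 2, control in blue, knockdown in red), with bars for the mean and SD of 6 libraries. The groups are apart at peaks LG1, 3, 8, 13, 14 and 21, are apart only within each batch at peaks 7, 15 and 17, and overlap at peaks 2, 4 and 6.

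Across all members, 9 peaks had knockdown libraries above (5) or below (4) every control library within both batches, while 28.3% of all peaks did so. With both batches pooled, 6 members had groups that did not overlap (3 above and 3 below), against 23.3% of all peaks. Of the 9 members within 1 kb of a gene end 1 was called (peak 2), and of the other 16 members 11 were called. Over all peaks, 25.2% of those within 1 kb of a gene end and 47.4% of the others were called.

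Gained and lost calls alternated on the left side of the cluster. Successive called peaks within 50 kb formed 7 pairs, of which 5 went in opposite directions. They were 2 and 3 (10166 bp apart), 3 and 4 (19296 bp), 4 and 6 (14121 bp), 6 and 7 (17396 bp), and 15 and 17 (42070 bp). The pairs 7 and 8, both gained, and 14 and 15, both lost, went the same way. In the whole series 1503 of 3900 such pairs (38.5%) went in opposite directions. The same count was 3 of 5 in the LILR and LAIR cluster (18 peaks, 2 gained and 7 lost), 0 of 2 in the SLAM cluster (12 peaks, 0 gained and 6 lost) and 0 of 2 in the MS4A cluster (8 peaks, 1 gained and 4 lost). The alternation was among the features for which the CD300 locus was proposed. Its count rested on the calls at peaks 2, 4, 6 and 15, each of which was lost when single libraries were left out. Peaks 2, 4 and 6 were called in neither batch fitted alone. The count was 1 without knockdown replicate 1 or 2 and 2 without control replicate 2, 3 or 6. It was 3 without control replicate 5 or knockdown replicate 4 or 6. Of the 12 calls, 7 were kept in all of the 18 other settings of the fit, the gains at peaks 8, 13, 17 and 21 and the losses at LG1, 3 and 14. Of these, only the losses at LG1 and 14 were over 2-fold. Peak 8 and LG1 did not reach 10 counts in every library and so drop out under that filter, which is not among the 18 settings.

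The summed signal of the member peaks, LG1 and LG2 included, differed little between the groups after scaling by the size factors. Over all 25 peaks the libraries held 973 to 1109 normalised counts in control (mean 1029 ± 50.7) and 1047 to 1090 in knockdown (1068 ± 17.02), a ratio of 1.04. The 7 gained peaks rose from 281.7 ± 21.0 to 421.0 ± 11.5 (1.49-fold), by 1.55 in batch 1 and 1.44 in batch 2. Their share of the member signal was 27.5 ± 2.76% in control and 39.4 ± 0.675% in knockdown. The 5 lost peaks fell from 212.4 ± 18.5 to 129.7 ± 9.86, a ratio of 0.611 (0.620 in batch 1 and 0.621 in batch 2), and their share went from 20.6 ± 0.962% to 12.1 ± 0.829%. The 13 peaks that were not called held 534.6 ± 41.4 and 517.5 ± 6.24. These groups of peaks were formed by their calls, so that the direction of the first 2 sums was fixed by the choice.

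**Figure D3:**
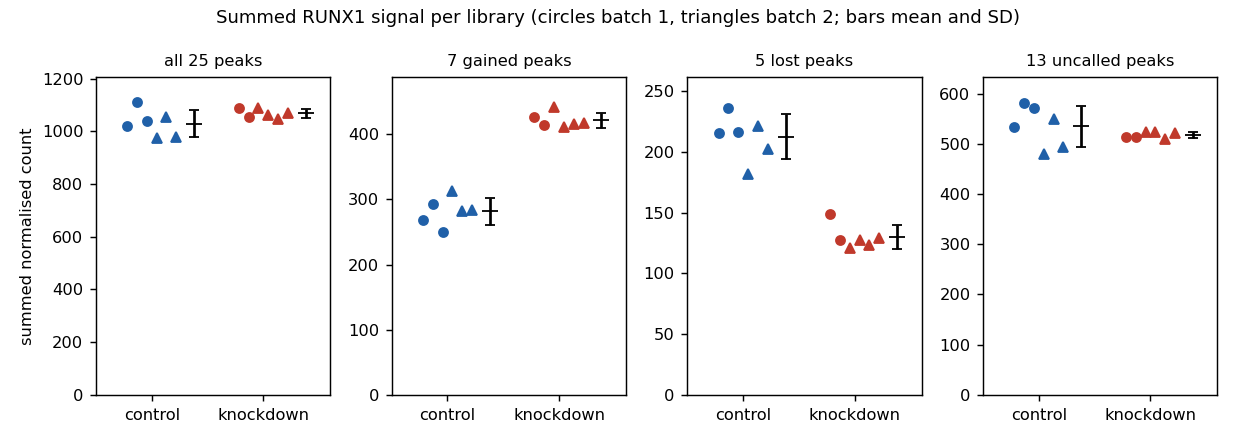
Each panel plots normalised counts summed over a group of member peaks, 1 point per library (circles batch 1, triangles batch 2), with bars for the mean and SD of 6 libraries. The sums over all 25 peaks overlap between control and knockdown, while the sums over the 7 gained and the 5 lost peaks, which were chosen for their change, do not.

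Peaks in a 10 Mb window centred on the cluster, leaving the members out, had a median log2 fold change of 0.15 (178 peaks, 58 gained and 28 lost). Of these 178 peaks 48.3% were called, close to the 48% of the members. Chromosome 17 as a whole had a median log2 fold change of 0.03 (1312 peaks). After subtracting from each member the median of the 10 Mb window centred on it, 4 were gained and 6 lost, in place of 7 and 5.

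The effect of the knockdown was then compared between batches. The difference between batches was not itself a ground for choosing the members. It is formed from the same values of knockdown against control, so its test is not fully independent of the choice. Agreement in sign describes the contrast that chose them. The log2 fold changes had the same sign in both batches at 18 of 25 members and at all 12 called members, whose calls rest on both batches together. The share of all peaks with equal signs is not given here. Batch 1 fitted alone called 1 member, the loss at LG1. Batch 2 fitted alone called 7, 3 gained and 4 lost, and only LG1 was called in both. Peaks 2, 4, 6, 7 and 8 were called in neither batch alone. A test of the product of genotype and batch in DESeq2 found no member whose effect differed (0 of 25 at an adjusted p under 0.05, lowest adjusted p 0.999864), and 1 member, peak 18, had an unadjusted p under 0.05 (0.0406). At peak 18 the log2 fold change was -0.20 ± 0.24 in batch 1 and 0.33 ± 0.18 in batch 2. By edgeR 0 members passed (lowest adjusted p 0.924) and 2, peaks 6 and 18, had an unadjusted p under 0.05. Over all peaks 2.51% in DESeq2 and 5.34% in edgeR had an unadjusted p under 0.05, and none passed after adjustment in either tool (0.0%). The difference between batches had a median standard error of 0.42 on the log2 scale, larger than the pooled log2 fold change of every one of the 13 members not called.

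**Figure D4:**
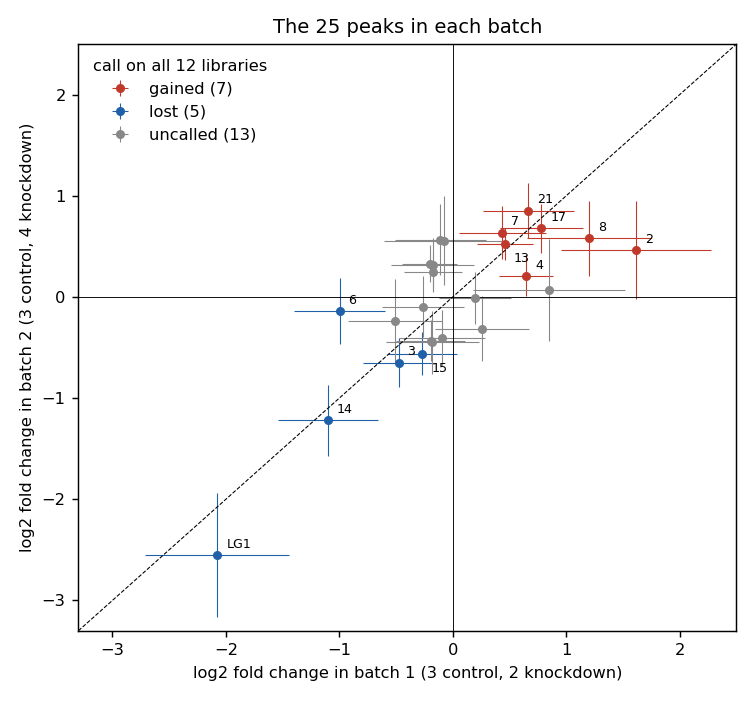
Each point is a member peak, with its log2 fold change in batch 1 on the horizontal axis and in batch 2 on the vertical axis, bars for standard errors and a dashed line of equal values. The 12 called peaks (red gained, blue lost) lie in the quadrants of equal sign, with peaks 2 and 6 farther from zero in batch 1 than in batch 2.

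At the border of the 50 kb window, the member peaks farthest from any member gene were peak 1 (34829 bp) and LG2 (34876 bp), both not called. The nearest peaks outside were gained peaks left of the cluster. The first (chr17:74408293-74408826, 57547 bp from CD300A) rose from 10.8 ± 4.69 to 24.2 ± 4.79 normalised counts and the second (chr17:74407317-74407882, 58491 bp) from 5.06 ± 2.93 to 21.1 ± 3.03.

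Genes known to work with these receptors were read out in the same way. Peaks within 50 kb of 12 adaptors and signalling enzymes numbered 70, of which 13 were gained and 25 lost (54.3% called, against 42.0% of all peaks, 21.3% gained and 20.7% lost), with a median log2 fold change of -0.30. At TYROBP the nearest peak rose from 20.1 ± 8.29 to 37.8 ± 10.6 normalised counts, and at FCER1G from 77.3 ± 13.1 to 114.4 ± 8.19. Both genes encode adaptors of the activating CD300 receptors. The nearest peak of INPP5D, a lipid phosphatase, was gained as well (124.1 ± 18.4 and 147.1 ± 17.5). These single peaks do not stand for their loci. Within 50 kb, INPP5D had 9 peaks, 1 gained and 4 lost, and FCER1G had 8, 2 gained and 3 lost. TYROBP had 7, 2 gained and 1 lost. At PIK3CD, a catalytic subunit of phosphoinositide 3-kinase, the nearest peak fell from 46.7 ± 6.22 to 21.2 ± 1.603, and at LYN, a kinase of the Src family, from 36.6 ± 8.17 to 27.3 ± 6.09. The nearest peaks of the other genes in the list were not called. Among them were HCST (58.6 ± 5.46 and 47.6 ± 7.05) and PTPN11, a phosphatase recruited by inhibitory receptors (31.5 ± 4.21 and 31.3 ± 6.87).
Related receptors with a single V-type domain (8 genes) had 6 peaks, 0 gained and 2 lost (33.3% called), and a median of 0.03. One of the 2 lost peaks lay at TREM2, a lipid receptor of macrophages, with 40.3 ± 9.36 normalised counts in control and 17.6 ± 3.01 in knockdown, and the other at FCAMR, an Fc receptor for IgA and IgM, with 49.6 ± 8.43 and 28.7 ± 7.22. Relatives and partners of RAB37 in secretion and autophagy (8 genes, of which ATG12 had no peak within 50 kb) had 36 peaks, 2 gained and 10 lost (33.3% called), and a median of -0.15. The nearest peak was lost at RAB26, a GTPase of secretory granules (30.6 ± 5.83 and 19.6 ± 4.88), and at ATG5, a factor of autophagosome formation (97.1 ± 16.4 and 77.0 ± 7.91). The groups overlapped at the ATG5 peak. At UNC13D, a factor of granule release, the nearest peak rose from 25.6 ± 6.02 to 35.1 ± 3.08. The nearest peaks of RAB27A, RAB27B, RAB3D and ATG16L1 were not called. These values come from the contrast that chose the members and are given without a test.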

How the data were processed

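RUNX1 ChIP-seq of THP-1 cells was analysed (6 control and 6 knockdown libraries). The 8 IgG libraries were not analysed here. According to the study's methods, reads were aligned by the authors with bowtie2 and duplicates removed. Peaks were called by macs2 for every condition and batch, those found reproducibly in both batches were merged over the conditions, and reads were counted with featureCounts (versions not given in the sources used here). The deposited values are raw counts per peak and library, and the deposited table gives each peak's width in bp. Since peak calling used these same libraries, peak choice and comparison are linked. The methods name a mouse build. Since 24.4% of peaks lay within 1 kb of a coding gene end in GRCh38.p14 (5.48% to 7.58% after shifting all peaks), coordinates were read as GRCh38.

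All 26642 peaks were fitted with DESeq2 1.42.0 (R 4.3.3) with batch as a covariate. Calls needed a fold change over 1.1 and a p under 0.05 after Benjamini-Hochberg adjustment. Member genes, lists and rules were chosen with earlier results of these data known. Peaks named with values were the called members, the peak nearest each member gene and the strongest member. Where several peaks overlapped a gene, the one with the highest mean normalised count was taken as nearest, also for the listed genes. A few others are given as group means only. Alternatives were edgeR 4.0.16, TMM or total counts for scaling, a replicate block, no batch term, a count filter, 2-fold calls, other windows, centring on 10 Mb and leaving out each library. The count of opposite neighbours was recomputed under these after its value was seen. Libraries of a group differed by more than sampling noise (chi-square per degree of freedom 1.29 to 2.24), so none was a duplicate. The fits were also run on simulated counts with few changed peaks, a fixed spread and no batch effect. That setting differs from these data, so it does not show how accurate the calls are here.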

Additional observations from a re-analysis of the deposited data

Results flagged for a closer look

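In 52 groups of 6 libraries (the 25 members and their sum, in control and knockdown), 3 held a library far from the others by Dixon's criterion, where chance alone gives about 1 in 20 groups, or 2.6. At peak 1, near GPRC5C, control replicate 5 held 31.7 normalised counts (27 raw reads), below the 44.2 to 48.6 of the other control libraries. At peak 9, at CD300LB, control replicate 1 held 48.1 (37 raw reads), below the other control libraries at 69.4 to 80.7, and without it the peak was called lost. At peak 22, control replicate 1 held 46.8 (36 raw reads), above the other control libraries at 24.2 to 31.2. None of these 3 peaks was called with all libraries.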

How the results depend on the processing

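The 7 gained and 5 lost members became 0 and 2 at 2-fold, and 13 and 10 in a 100 kb window (38 peaks). Lost peaks numbered 3 among the 18 members with at least 10 counts in every library, and gained peaks numbered 4 after centring on 10 Mb. Leaving out each library gave 5 to 7 gained and 3 to 5 lost peaks, with 3 lost without knockdown replicate 2. The log2 ratio of the summed signal, 0.05, stayed between 0.04 and 0.08 in those fits. The 5 opposite pairs of successive calls became 3 with TMM or total counts as size factors, 2 with the count filter, 0 at 2-fold, 3 in a 20 kb and 8 in a 100 kb window, and 1 to 5 without single libraries. With the replicate number as a block, 5 peaks were gained and 4 lost, and 1 pair was opposite. The numbers were not found to pair the samples (correlations of same-numbered libraries from -0.08 to 0.24, 1 of 6 over 0.1, and 1 of 6 control libraries closest to its own number). The number of members whose effect differed between batches was 0 in edgeR too. Over 17 named peaks and 18 settings (306 values), 271 kept direction and call, 27 lost the call, 4 gained it (all at peak 9) and 4 changed sign. The sign changes were at peak 5, where leaving out single libraries gave -0.18 to 0.13 (0.13 without control replicate 4 and 0.015 without knockdown replicate 5), and at peak 18, where it gave -0.011 (without control replicate 4) to 0.18 and centring gave -0.037. The cause of these changes was not tested, except that fewer peaks enter under the filter and narrower window and more under the wider one. Thin peaks such as 2, 8, LG1 and LG2 limit what single calls can carry.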
